A study of Mus musculus with 6 samples.

Results

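Of the 45706 genes in the count table, 10 genes for RNA-binding proteins were chosen by name and followed across the 6 samples. They are the 3 RBMS genes (Rbms1, Rbms2 and Rbms3) and 7 genes for proteins that bind mRNA and set its stability (Elavl1, Zfp36, Zfp36l1, Zfp36l2, Hnrnpd, Khsrp and Tia1). They were listed by name, with no threshold on a measured value. All 10 had a row in the table and all 10 passed the filter on low counts, with estimated counts between 68 and 3541 in a sample.

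The samples were 3T3-L1 cells, a mouse embryo fibroblast line that differentiates into adipocytes in culture. Of these samples, 3 stably expressed a scrambled control shRNA from a lentivirus (genotype WT in the labels) and 3 an shRNA to Rbms1 (genotype RBMS1KD). The cells were transduced and then selected in puromycin, and both groups received IBMX, insulin, dexamethasone and rosiglitazone and were harvested on day 7 of differentiation. The lines are described as stable cells and not as clones, and whether the 3 replicates of a group came from separate transductions is not stated in the sources used here, so the p-values measure the spread between these samples.

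RBMS1, RBMS2 and RBMS3 carry RNA recognition motifs and bind single-stranded nucleic acid with a preference for AU-rich sequence. The other proteins share that kind of target, the AU-rich element, a run of ATTTA pentamers in the 3′ UTR of short-lived transcripts. ZFP36 (tristetraprolin) and its relatives ZFP36L1 and ZFP36L2 recruit the CCR4-NOT deadenylase and shorten the life of such an mRNA. ELAVL1 (HuR) binds the same elements and stabilizes the message, HNRNPD (AUF1) and KHSRP mostly promote decay, and TIA1 represses translation and forms stress granules. HuR is known to act in adipogenesis, and ZFP36 is an immediate-early gene of hormone and inflammatory signaling.

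The transcripts of these proteins carry such elements themselves. In the longest 3′ UTR that GENCODE gives each gene on GRCm38, read on the sense strand with overlapping matches counted, every one of the 10 genes held at least 1 ATTTA, as did 65.2% of the 21024 protein-coding genes with a 3′ UTR. These 3′ UTRs were mostly long, from 1642 to 5950 bases in all but Zfp36 (774 bases), against a median of 960 bases over all genes, so presence and counts are set against shorter sequences. The longer TATTTAT, which contains the pentamer, was found in 27.6% of all 3′ UTRs and at least 2 times in 10.4%. Elavl1 held it 8 times, and Zfp36, Zfp36l1 and Zfp36l2 held it 3 times each, whereas Rbms1 and Tia1 held it once and the other 4 genes not at all. The 3′ UTR of Zfp36l1 had 4.90 ATTTA per kb, percentile 92.2 of all genes, against a median of 1.24 per kb. That of Khsrp had 1 ATTTA in 1642 bases, or 0.609 per kb. The densest stretches of 30 bases are shown for the targeted gene, the ZFP36 family, Elavl1 with its many pentamers and Khsrp with its single one, written on the sense strand with T for U and with each ATTTA in capitals.
Rbms1, chr2:60751372-60751401 (minus strand): aaaATTTAaaaaATTTAaaaattaaaaaaa
Zfp36, chr7:28376956-28376985 (minus strand): tttATTTAtgacgactttATTTAttgtatt
Zfp36l1, chr12:80108433-80108462 (minus strand): agcttATTTAacttatcaaaacgtATTTAt
Zfp36l2, chr17:84184923-84184952 (minus strand): aatatgaaaaactATTTAacttATTTAtta
Elavl1, chr8:4285777-4285806 (minus strand): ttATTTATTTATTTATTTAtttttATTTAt
Khsrp, chr17:57021597-57021626 (minus strand): agccagccttagaaaatagcaagaATTTAa
The stretch from Elavl1 held 5 pentamers, 4 of them overlapping, those from Rbms1, Zfp36, Zfp36l1 and Zfp36l2 held 2 each, and the stretch from Khsrp held 1, as did those of Rbms2, Rbms3 and Hnrnpd, which are not printed.

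Total estimated counts ranged from 3142695 to 11073098 per sample. The shallowest, scrambled control replicate 2, had 43.0% of its counts on genes derived from ribosomal RNA, against 8.12% to 17.8% in the other samples. Levels are counts scaled to a common library size (CPM with TMM factors), and a change is a log2 fold change of RBMS1 knockdown over scrambled control. The labels give the cell type as fibroblast. Of 13 adipocyte markers, 12 passed the filter on low counts, and Lep did not, at a mean of 0.506 CPM in the controls and 0.955 CPM after knockdown. The 13 markers had a summed level of 24289 to 27260 CPM in the controls and 12936 to 23156 CPM in the knockdown samples. Lpl was the largest term of this sum, with a mean of 12915 CPM in the controls and 7051 CPM after knockdown, and did not pass the test below. Cd36 was the 1 tested marker with a fitted change above 0. Preadipocyte and fibroblast markers, 11 of 11 detected, summed to 12451 to 14884 CPM in the controls, to 8236 CPM in knockdown replicate 1, and to 17017 and 17213 CPM in the other knockdown samples. Macrophage markers summed to 9.62 CPM or less, with Ptprc and Adgre1 at 0, and endothelial markers to 2.40 CPM or less, with Kdr at 0. Fewer cells of a type and less RNA per cell cannot be told apart in these bulk samples.

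None of the 10 genes passed the threshold, set at 0.1 for the p adjusted over all tested genes, in edgeR's quasi-likelihood test, where 140 of 11440 tested genes (1.22%) did, 104 lower (0.909%) and 36 higher (0.315%) after knockdown. The count was also 0 by DESeq2, which called 3.20% of the genes it tested (2.12% lower and 1.08% higher), and 0 by limma-voom. At an unadjusted p under 0.05, edgeR gave 2 of the 10 genes, Rbms1 and Zfp36, both lower after knockdown, beside 12.4% of all tested genes in either direction and 6.98% lower. Rbms1, Zfp36, Zfp36l1 and Elavl1 had knockdown values that lay wholly below the control values. Such separation in either direction was seen in 18.5% of all tested genes. Of the fitted changes, 6 were below 0 and 4 above 0, with a median of -0.18 against 0.0044 for all tested genes. Without knockdown replicate 1 the tally was 4 below and 6 above with a median of 0.097, and with chromosome medians removed it was 5 and 5 with a median of 0.024. With library sizes alone it was 3 below and 7 above with a median of 0.18, on a scale where all tested genes had a median of 0.37. The changes given below with library sizes alone are all on that scale.

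**Figure D1:**
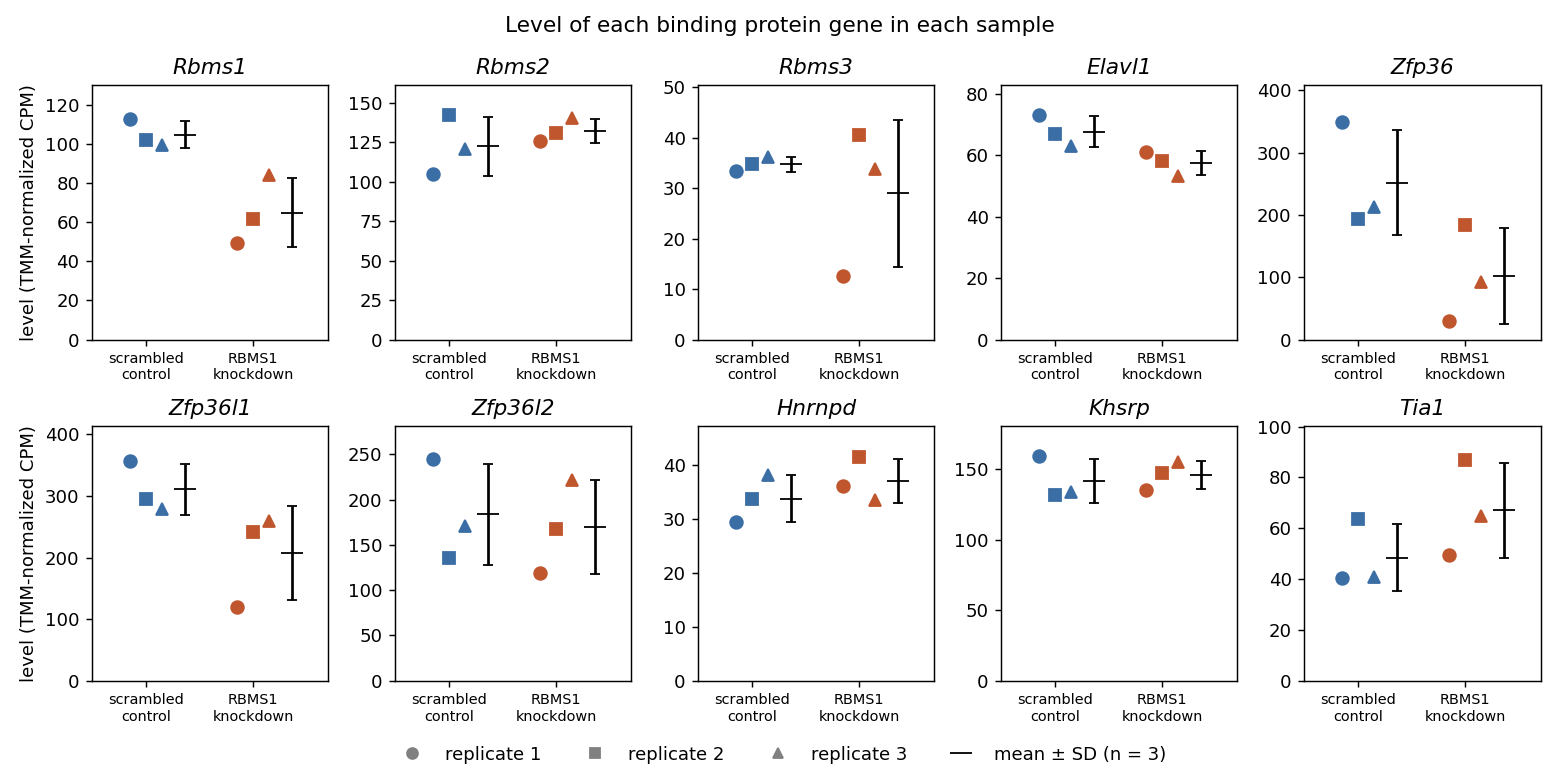
Level of each of the 10 genes in TMM-normalized CPM (y axis, from 0) in the 3 scrambled control samples (blue) and the 3 RBMS1 knockdown samples (orange). Symbols mark the replicate number and black bars the mean ± SD (n = 3), and the knockdown points lie below all control points for Rbms1, Elavl1, Zfp36 and Zfp36l1.

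Rbms1 (ENSMUSG00000026970, chr2:60750193-60963192), the targeted gene, was measured at 113, 102 and 99.6 CPM in the scrambled control samples and at 49.2, 61.4 and 84.0 CPM in RBMS1 knockdown replicates 1, 2 and 3. The knockdown samples thus kept 46.9%, 58.6% and 80.2% of the control mean, and replicate 3 stood nearest to the controls. Mean levels were 105 ± 7.10 CPM in the controls and 64.8 ± 17.7 CPM after knockdown (SD, n = 3). The log2 fold change was -0.69 (SE 0.20, 95% interval -1.14 to -0.24), with an edgeR p of 0.00687 and an adjusted p of 0.185. Without knockdown replicate 3 it was -0.92 (edgeR adjusted p 0.0708). With library sizes alone, a scaling that moved the median of all genes by 0.37, it was -0.31.

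Rbms2 (ENSMUSG00000040043, chr10:128131558-128180297), the closest of the paralogs in level, was at 105, 142 and 120.4 CPM in the controls and at 125, 130.5 and 140.3 CPM after knockdown. The groups overlapped, and the knockdown values all lay within the control range. Its log2 fold change was 0.11 (95% interval -0.24 to 0.46, edgeR adjusted p 0.822) and 0.53 with library sizes alone (edgeR adjusted p 0.335), so a higher Rbms2 level was not detected at this depth. It was 0.017 without scrambled control replicate 1 and 0.23 without control replicate 2. Rbms3 (ENSMUSG00000039607, chr9:116572746-117629913), the third paralog, was at 33.3, 34.7 and 36.3 CPM in the controls and at 12.7, 40.6 and 33.8 CPM after knockdown. Knockdown replicate 1 held 36.4% of the control mean and the other knockdown samples stood within or just above the control values. The log2 fold change of Rbms3 was -0.26 (95% interval -1.05 to 0.53, edgeR adjusted p 0.815) and 0.10 without knockdown replicate 1.

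Levels of different genes were compared after division by the length of the longest coding transcript. On this scale Rbms1 made up 41.5%, 32.6% and 35.4% of the summed RBMS family level in the controls and 21.9%, 23.7% and 28.8% in the knockdown samples. The share of Rbms2 was 51.6%, 61.1% and 57.4% in the controls and 74.98%, 67.6% and 64.7% after knockdown, and neither share overlapped between groups. A share can rise when another member falls, and the level of Rbms2 itself did overlap. Rbms3 made up between 3.16% and 8.77% in every sample. The summed level of the family was 61.3, 70.3 and 63.5 CPM per kb in the controls and 50.7, 58.5 and 65.7 CPM per kb after knockdown, with overlap. The ratio of Rbms1 to Rbms2 counts, which does not depend on how libraries are scaled, was 1.08, 0.717 and 0.827 in the controls and 0.392, 0.471 and 0.599 after knockdown. On the log2 scale it was lower by a mean difference of -0.85 (exact two-sided permutation p 0.1, the smallest that 3 against 3 samples allow, and 0.2 after adjustment over 4 ratios). The ratio of Rbms1 to Rbms2 and Rbms3 together differed by -0.76, with the same exact permutation p of 0.1 and adjusted p of 0.2.

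**Figure D2:**
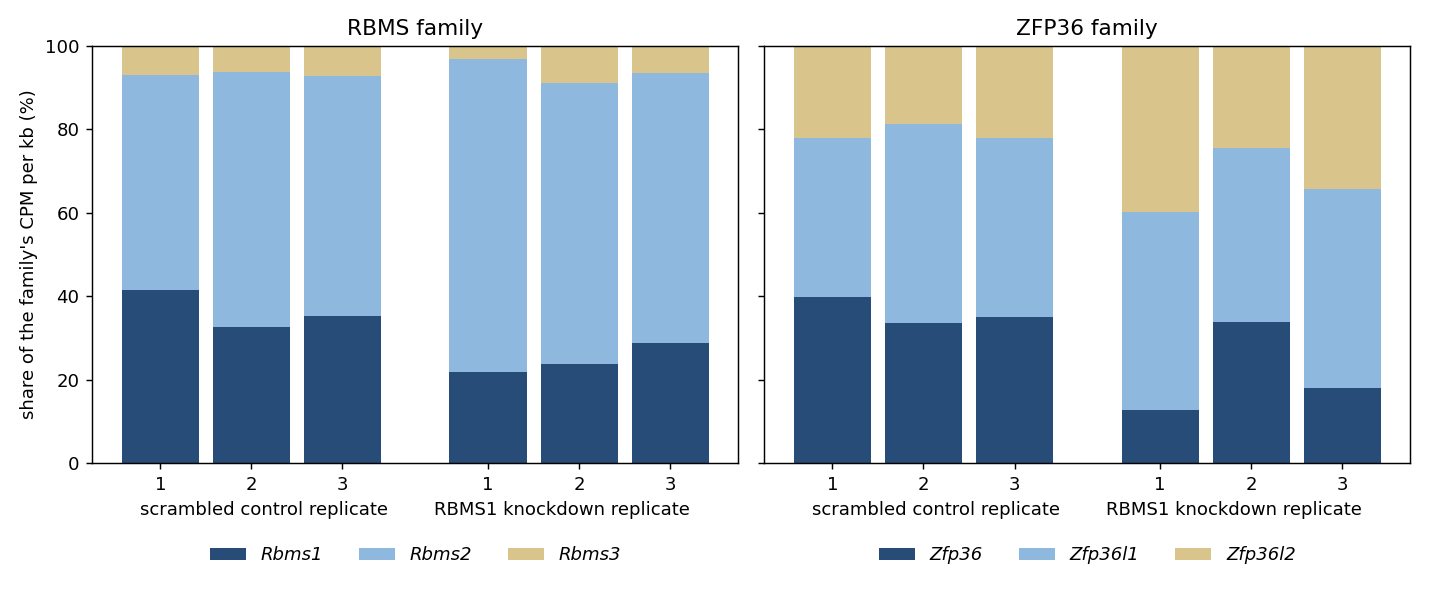
Share of each gene in the summed level per kb of its family (y axis, percent), for the RBMS family on the left and the ZFP36 family on the right, with 1 bar per sample in each group. The Rbms1 share is 32.6% or more in the controls and 28.8% or less in the knockdown samples, and the Zfp36 share is lowest, at 12.8%, in knockdown replicate 1.

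Among the destabilizing zinc finger proteins, Zfp36 (ENSMUSG00000044786, chr7:28376784-28380253) stood at 348, 194 and 212 CPM in the controls and at 30.2, 183 and 91.9 CPM in knockdown replicates 1, 2 and 3. The control and knockdown values did not overlap, but knockdown replicate 2 was just below the lowest control, and the highest knockdown value was 6.06 times the lowest. The mean was 252 ± 84.5 CPM in the controls and 102 ± 76.9 CPM after knockdown (SD, n = 3). The log2 fold change of Zfp36 was -1.31 (SE 0.52, 95% interval -2.47 to -0.15, edgeR p 0.0312, adjusted p 0.341). Leaving out 1 sample at a time gave -2.02 without knockdown replicate 2 and -0.87 without knockdown replicate 1. The SD of its log2 values within the groups, 0.975, was percentile 97.0 of all tested genes, whose median was 0.280.

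Zfp36l1 (ENSMUSG00000021127, chr12:80107754-80113013) was at 357, 295 and 279 CPM in the controls and at 119.6, 241 and 259.9 CPM after knockdown. Its groups did not overlap either, with knockdown replicate 1 again the lowest sample. Its log2 fold change was -0.59 (SE 0.27, 95% interval -1.19 to 0.016, edgeR p 0.0552, adjusted p 0.413) and was -0.30 without knockdown replicate 1 and -0.21 with library sizes alone. Zfp36l2 (ENSMUSG00000045817, chr17:84183931-84187947) was at 245, 136 and 170.3 CPM in the controls and at 119, 168 and 222 CPM after knockdown. The groups overlapped over most of their range, and the log2 fold change of -0.12 (95% interval -0.71 to 0.48, edgeR adjusted p 0.902) became 0.15 without scrambled control replicate 1, 0.094 without knockdown replicate 1 and 0.22 with library sizes alone.

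Per kb, Zfp36 made up 39.8%, 33.6% and 35.0% of the ZFP36 family level in the controls and 12.8%, 33.9% and 18.03% after knockdown, where replicate 2 stood among the controls. The share of Zfp36l2 was 18.6% to 22.2% in the controls and 24.6% to 39.8% after knockdown, without overlap. A share can rise when other members fall, and the level of Zfp36l2 itself overlapped between the groups (log2 fold change -0.12). The summed family level was 314, 207 and 218 CPM per kb in the controls and 84.5, 194 and 183 CPM per kb in the knockdown samples. The log2 ratio of Zfp36 to Zfp36l1 differed by -0.95 between groups (exact two-sided permutation p 0.2, adjusted 0.267), by -0.60 without knockdown replicate 1 and by -1.40 without knockdown replicate 2. The low sample here, knockdown replicate 1, is also the one with the lowest fibroblast marker sum, 8236 CPM, and the highest adipocyte marker sum of its group, 23156 CPM, and the part of these differences in the result was not tested. Over all 10 genes, 5 had their lowest value in that sample. How many of all tested genes did was not counted. Leaving that sample out raised the calls over the whole table from 140 to 696.

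Sequence upstream of the start sites was read for the pair of ZFP36 genes whose groups did not overlap. The windows below run from 250 bases before to 50 after the annotated start (RefSeq, GRCm38.p6), and entries were held for 9 of the 10 genes. Both strands were searched for the CArG box (the site of serum response factor), for TATAAA and for TGACGTCA (the cyclic AMP response element), which were present in 1.63%, 13.6% and 1.79% of 32851 promoters of this length. Capitals mark the CArG box in Zfp36 and TATAAA in Zfp36l1.
Zfp36 promoter, chr7:28379179-28379478 (minus strand): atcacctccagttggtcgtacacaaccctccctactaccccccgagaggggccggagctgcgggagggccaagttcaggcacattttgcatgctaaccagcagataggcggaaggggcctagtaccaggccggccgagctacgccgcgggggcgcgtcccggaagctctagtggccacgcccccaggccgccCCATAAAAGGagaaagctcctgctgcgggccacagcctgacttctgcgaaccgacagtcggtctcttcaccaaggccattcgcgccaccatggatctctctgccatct
Zfp36l1 promoter, chr12:80112964-80113263 (minus strand): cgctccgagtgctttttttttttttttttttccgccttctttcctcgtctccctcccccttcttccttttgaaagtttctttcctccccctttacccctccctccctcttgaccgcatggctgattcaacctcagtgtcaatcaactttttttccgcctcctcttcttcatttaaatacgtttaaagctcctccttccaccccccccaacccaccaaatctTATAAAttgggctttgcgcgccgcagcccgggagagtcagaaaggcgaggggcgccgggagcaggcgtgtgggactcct
Among the 12 promoter entries, which cover 9 of the 10 genes and not Zfp36l2, a CArG box was also found in Hnrnpd and TATAAA in 1 entry of Rbms3. TGACGTCA was found in none of these entries. A match describes these letters in this window and not a bound site.

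Elavl1 (ENSMUSG00000040028, chr8:4285382-4325413), the stabilizing protein of the group, was at 73.1, 67.0 and 63.1 CPM in the controls and at 61.2, 58.1 and 53.3 CPM after knockdown. The 3 knockdown values lay below the 3 control values by a small margin, and the SD within groups was 0.103 on the log2 scale, percentile 4.42 of all tested genes. The log2 fold change was -0.24 (SE 0.15, 95% interval -0.56 to 0.091, edgeR p 0.138, adjusted p 0.556). Elavl1 lies on chromosome 8, where 90.1% of the 624 tested genes had a change below 0 and the median was -0.38. With the median of each chromosome removed, the change of Elavl1 was 0.12, and with library sizes alone it was 0.13. The part of the chromosome-wide difference in the Elavl1 values was not tested further. The ratio of Elavl1 to the summed ZFP36 family counts was 0.0770, 0.108 and 0.0955 in the controls and 0.228, 0.0982 and 0.0929 after knockdown, so knockdown replicate 1 alone stood above the controls. The mean log2 difference of 0.47 (exact two-sided permutation p 0.5, adjusted 0.5) was 0.047 without that sample.

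Tia1 (ENSMUSG00000071337, chr6:86404219-86433405) was at 40.6, 63.5 and 40.9 CPM in the controls and at 49.5, 86.9 and 64.9 CPM after knockdown. Scrambled control replicate 2, the shallow sample, was the highest control and overlapped the knockdown samples. Its fitted log2 fold change was 0.48 (SE 0.25, 95% interval -0.078 to 1.04, edgeR p 0.0839, adjusted p 0.477), on a chromosome whose 567 tested genes had a median of 0.19. It was 0.91 with library sizes alone, 0.72 without that control and 0.26 without knockdown replicate 2, and stayed above 0 under all 17 alternatives to the fit.

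Hnrnpd (ENSMUSG00000000568, chr5:99955935-99978938) was at 29.5, 33.7 and 38.0 CPM in the controls and at 36.1, 41.5 and 33.4 CPM after knockdown. Khsrp (ENSMUSG00000007670, chr17:57021051-57031522) was at 159.7, 132 and 134 CPM in the controls and at 135, 147 and 155 CPM after knockdown. In both genes the groups overlapped and no sample stood far from the others. Their log2 fold changes were 0.13 (95% interval -0.26 to 0.52, edgeR adjusted p 0.811) and 0.040 (95% interval -0.29 to 0.37, edgeR adjusted p 0.943). With library sizes alone these changes were 0.50 and 0.40. The change of Hnrnpd was 0.046 without scrambled control replicate 1, 0.055 without knockdown replicate 2, 0.23 without control replicate 3 and 0.21 without knockdown replicate 3. The change of Khsrp was slightly below 0, at -0.012, without scrambled control replicate 2 and at -0.0023 without knockdown replicate 3.

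**Figure D3:**
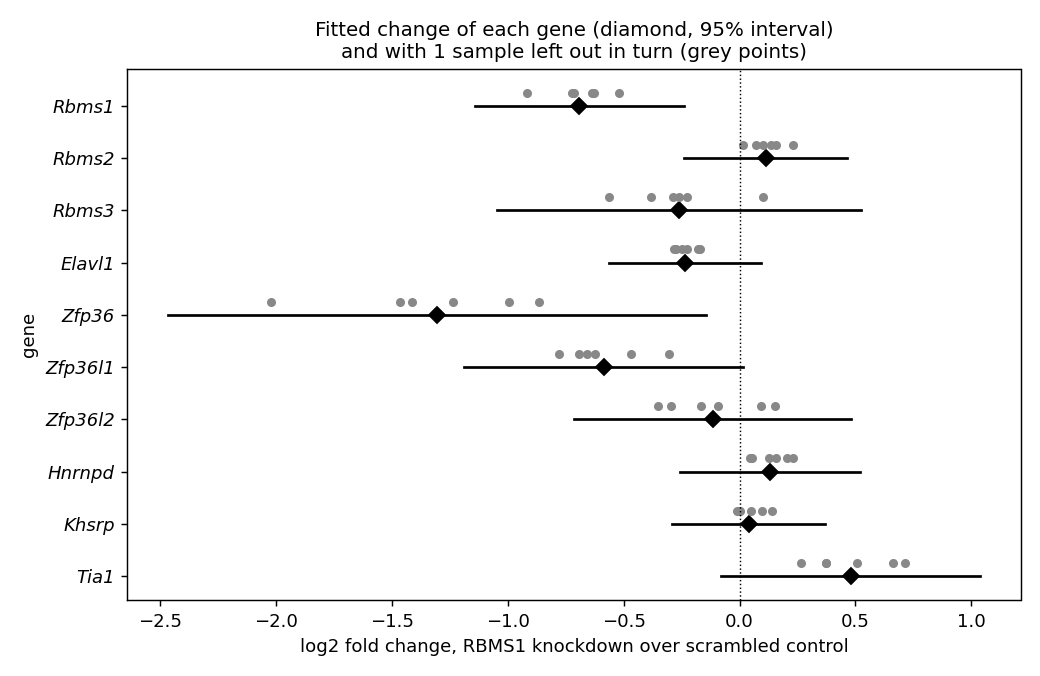
Fitted log2 fold change of RBMS1 knockdown over scrambled control (x axis) for each of the 10 genes, with diamonds for the fit over all 6 samples, lines for its 95% interval, and grey points for the fit with 1 sample left out in turn. The intervals of Rbms1 and Zfp36 lie below 0, and the points of Zfp36 spread from -2.02 to -0.87.

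In the order of levels per kb in the controls, Zfp36l1 (103.9 ± 13.8 CPM per kb) and Zfp36 (90.1 ± 30.3) came first and overlapped. Zfp36l2 (52.0 ± 15.7), Rbms2 (37.0 ± 5.69) and Khsrp (35.7 ± 3.87) followed, each overlapping the next. Rbms1 (23.6 ± 1.60) stood apart from its neighbours on both sides. Elavl1 (11.8 ± 0.873) and Tia1 (10.8 ± 2.94) overlapped, as did Hnrnpd (4.96 ± 0.626) and Rbms3 (4.40 ± 0.187) at the low end. Divided by the length of all exons together, Tia1 came last at 3.07 CPM per kb, since its annotated exons span 15750 bases. After knockdown, Zfp36 (36.5 ± 27.6) stood lower in the order, behind Zfp36l1 (69.2 ± 25.5), Zfp36l2, Rbms2 and Khsrp, and Rbms1 (14.6 ± 3.98) just below Tia1 (14.98 ± 4.20), with overlap between all neighbours down to Rbms1.

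The genes whose log2 CPM followed that of Rbms1 most closely over the 6 samples, among 8159 genes with a mean of at least 10 CPM, were Wdr6 (Pearson r 0.995), Lhfp (0.990) and Fndc3b (0.987). Wdr6 was at 59.6, 55.6 and 56.4 CPM in the controls and at 28.6, 35.9 and 49.7 CPM in knockdown replicates 1, 2 and 3, the same order of knockdown samples as Rbms1. None of the 3 genes passed the test. The correlations describe 6 libraries that share the contrast between the groups and were the highest of many.

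The machinery these proteins act through was read from 6 lists of genes. Of the deadenylation list (the CCR4-NOT and PAN2-PAN3 complexes, PARN, and the BTG/TOB and poly(A)-binding proteins), 20 of 20 genes were tested, 8 had a change above 0 and 12 below, and none was called by edgeR, with a median log2 fold change of -0.047. At an unadjusted p under 0.05 there were 4 of the 20 (12.4% of all tested genes), and DESeq2 called 2 (3.20%). Without knockdown replicate 1 edgeR called 2, both lower, and it called 1 without knockdown replicate 2 and 1 with no filter on low counts, settings that gave 696, 38 and 268 calls over the whole table. The list's median lay between -0.12 (without knockdown replicate 1) and 0.022 (without knockdown replicate 3) when single samples were left out. Btg2, an antiproliferative adaptor that brings CCR4-NOT to its targets, was at 234, 183 and 207 CPM in the controls and at 47.0, 144 and 77.7 CPM after knockdown (log2 fold change -1.21, SE 0.34, edgeR adjusted p 0.169). Its knockdown samples stood in the same order as those of Zfp36. Tob1, a related adaptor, was at 320.5 ± 21.3 CPM in the controls and 224 ± 24.0 CPM after knockdown without overlap (-0.51, SE 0.15, edgeR adjusted p 0.194). Pabpc1, the main cytoplasmic poly(A)-binding protein, was the most abundant of the list, at 964 ± 140.3 and 760.3 ± 27.2 CPM (-0.34, edgeR adjusted p 0.489).

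For decapping and 5′ to 3′ decay, 19 of 19 genes were tested, 13 had a change above 0 and 6 below, and the median was 0.072. None was called by edgeR, 2 had an unadjusted p under 0.05 (12.4% of all tested genes did), and DESeq2 called 1 (3.20% of the genes it tested). Without knockdown replicate 1, where 696 genes were called over the whole table, edgeR also called 1. Dcp2, the decapping enzyme, was at 19.6, 15.9 and 28.2 CPM in the controls and at 33.8, 36.1 and 42.4 CPM after knockdown (log2 fold change 0.81, SE 0.23, edgeR adjusted p 0.174). Lsm6, a subunit of the LSM ring encoded on chromosome 8, was at 14.3 ± 4.59 and 8.15 ± 2.11 CPM (-0.78, edgeR adjusted p 0.338). Edc4, Lsm1 and Lsm4, also below 0, lie on chromosome 8 as well. With chromosome medians removed, 14 genes of the decapping list were above 0 and 5 below, with a median of 0.11. Ddx6, a helicase of processing bodies, was at 271 ± 33.8 and 297 ± 49.98 CPM with overlapping groups. Of the RNA exosome list, 18 genes were tested, 9 above and 9 below 0 with a median of -0.013, and none was called by edgeR or DESeq2, with 1 at an unadjusted p under 0.05. That gene was Exosc9, a ring subunit, at 10.5 ± 3.16 and 5.88 ± 0.511 CPM (-0.84, SE 0.29, edgeR adjusted p 0.270). Dis3l2, a separate 3′ exonuclease, was at 6.88 ± 1.86 and 10.6 ± 1.69 CPM (0.59, edgeR adjusted p 0.423), and Skiv2l, the helicase of the SKI complex, at 81.2 ± 11.8 and 68.5 ± 5.51 CPM (-0.25, edgeR adjusted p 0.576).

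Of 34 other proteins that bind mRNA and affect its stability, 31 were tested, 13 above and 18 below 0, with a median of -0.053. An unadjusted p under 0.05 was reached by 7, beside 12.4% of all tested genes. DESeq2 called 3 genes of this list, 2 higher and 1 lower, beside 3.20% of the genes it tested. Without knockdown replicate 1 edgeR also called 2 higher and 1 lower, in a setting with 696 calls over the whole table. Over all 6 samples edgeR called 1 gene of this list, beside 1.22% of all tested genes. The gene called by edgeR over all 6 samples was Fxr1, a relative of the fragile X protein, which fell from 58.03, 91.3 and 63.3 CPM in the controls to 32.2, 39.3 and 33.1 CPM after knockdown (log2 fold change -1.02, SE 0.20, edgeR adjusted p 0.0797). This call was lost without any single control (edgeR adjusted p 0.132 to 0.245), without knockdown replicate 2 (0.179) or 3 (0.119), with chromosome medians removed (0.133) and with library sizes alone (0.299). Fmr1, the fragile X protein itself, was at 122, 120.6 and 147 CPM in the controls and at 205, 209 and 344 CPM after knockdown without overlap, and missed the threshold (0.96, SE 0.22, edgeR adjusted p 0.111).

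Among 16 kinases, phosphatases and adaptors that control ZFP36 (the p38 and MK2 pathway, the ERKs, protein phosphatase 2A and 14-3-3 proteins), all 16 were tested, 7 above and 9 below 0, with a median of -0.036 that was 0.067 without knockdown replicate 1 and -0.12 without knockdown replicate 3. An unadjusted p under 0.05 was reached by 1 of the 16, beside 12.4% of all tested genes. Dusp1, the phosphatase that inactivates p38, was the 1 gene called, beside 1.22% of all tested genes. It fell from 128, 85.9 and 123 CPM in the controls to 10.6, 40.2 and 19.2 CPM after knockdown (log2 fold change -2.27, SE 0.41, edgeR adjusted p 0.0578), in the same order of knockdown samples as Zfp36. Leaving out any single control raised its edgeR adjusted p to between 0.152 and 0.215. Mapk14, which encodes p38α, was at 74.8 ± 9.16 and 60.7 ± 3.15 CPM (-0.30, edgeR adjusted p 0.458), and Ywhab, a 14-3-3 protein, at 709 ± 54.1 and 611 ± 164.9 CPM (-0.21, edgeR adjusted p 0.746).

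The last list holds 40 transcripts named as AU-rich element transcripts, and the elements in their 3′ UTRs are not reported here. At least 1 ATTTA lay in 65.2% of all 3′ UTRs, so all tested genes are not a set without the element. Of the 40 listed transcripts, 32 were tested, 27 with a change below 0 (84.4%, against 49.6% of all tested genes) and 5 above. Their median log2 fold change was -0.46, and between -0.63 and -0.35 when single samples were left out. With library sizes alone it was -0.17, on a scale where all tested genes had a median of 0.37. An unadjusted p under 0.05 was reached by 13 of them, all lower after knockdown (6.98% of all tested genes were), and 1 was called lower by edgeR and 3 by DESeq2 (0.909% and 2.12% of all tested genes). With single samples left out, edgeR called 7 without knockdown replicate 1 (6 lower and 1 higher), 3 without knockdown replicate 2 and 0 without knockdown replicate 3 or any single control. Over the whole table, 696 genes were called without knockdown replicate 1 (426 lower and 270 higher) and 38 without replicate 2, against 140 with all samples. Ier2, the called gene, is an immediate-early gene on chromosome 8 and fell from 382, 217 and 252 CPM in the controls to 31.5, 110.3 and 66.1 CPM after knockdown (log2 fold change -2.03, SE 0.40, edgeR adjusted p 0.0797). The call was lost with chromosome medians removed (edgeR adjusted p 0.164), without any single control (0.198 to 0.225) and without knockdown replicate 3 (0.109). Nfkbia, the inhibitor of NF-κB, was at 41.1 ± 1.91 and 26.6 ± 2.75 CPM without overlap (-0.63, SE 0.16, edgeR adjusted p 0.145). Vegfa, the angiogenic growth factor, was at 552 ± 58.5 and 368 ± 99.6 CPM, also without overlap (-0.59, SE 0.22, edgeR adjusted p 0.313). Many genes of this list are immediate-early genes, as Zfp36 is, and mRNA half-life was not measured, so a level here does not tell synthesis from decay.

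**Figure D4:**
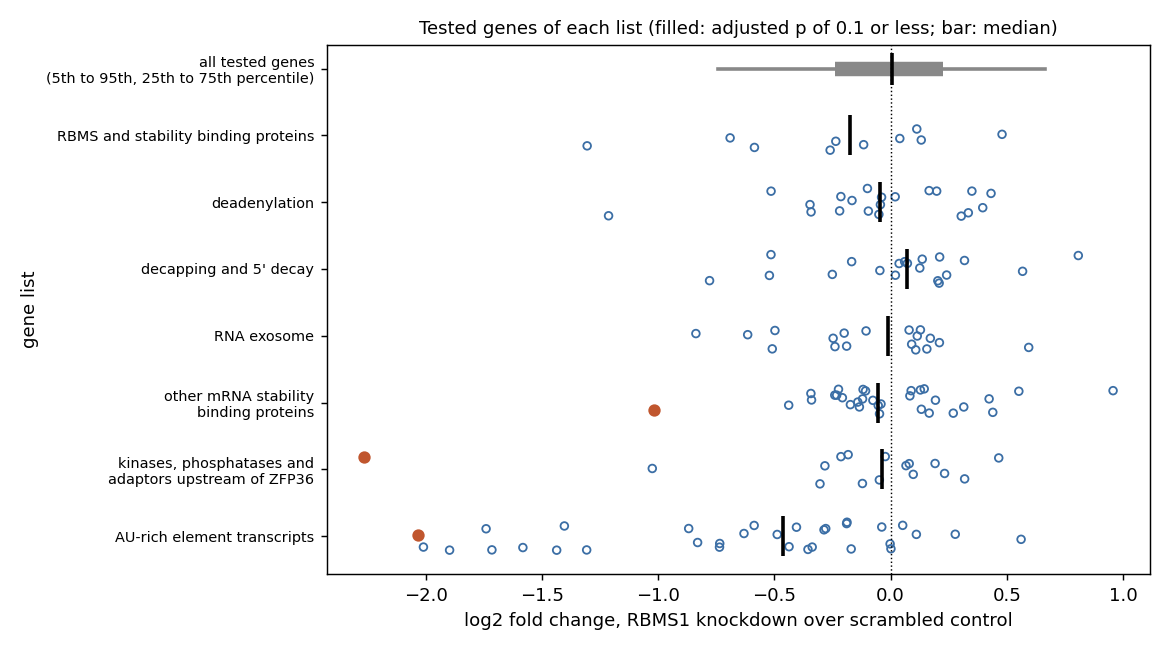
Log2 fold change of RBMS1 knockdown over scrambled control (x axis) for the tested genes of the 10 binding proteins and of the 6 lists (1 point per gene, filled where called at an adjusted p of 0.1 or less, black bar at the median), with the 5th to 95th and 25th to 75th percentiles of all tested genes on top. The median of the AU-rich element transcripts lies at -0.46 and those of the other 5 lists between -0.053 and 0.072.

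Of the adipocyte and preadipocyte markers measured beside these genes, Adipoq (log2 fold change -0.24), Fabp4 (-0.46), Plin1 (-0.43) and Dlk1 (-0.84) did not pass edgeR's test, with adjusted p of 0.815, 0.543, 0.435 and 0.388. Dlk1, a preadipocyte factor, was lowest in knockdown replicate 1, at 67.7 CPM, the sample in which Rbms1, Rbms3, Zfp36, Zfp36l1 and Zfp36l2 were also lowest. How many of all tested genes were lowest there was not counted. Of the 12 adipocyte markers tested, 11 had a change below 0 (49.6% of all tested genes did), with a median of -0.42. An unadjusted p under 0.05 was reached by 4, Cd36 among them, beside 12.4% of all tested genes. Cd36, the 1 marker above 0, was at 689 ± 89.4 CPM in the controls and 1134 ± 208 CPM after knockdown without overlap (0.72, SE 0.21, edgeR adjusted p 0.183). The adipokine Retn, on chromosome 8, was the 1 called by edgeR (log2 fold change -1.67, adjusted p 0.0967), beside 1.22% of all tested genes. Both Cd36 and Retn were picked here after their values were seen. The Retn call was lost with chromosome medians removed (edgeR adjusted p 0.202), without any single control (0.224 to 0.358), without knockdown replicate 2 (0.288) or 3 (0.123), with RLE size factors (0.102), with library sizes alone (0.118) and with the earlier edgeR estimates (0.105). Of the 11 preadipocyte and fibroblast markers, 6 had a change below 0 and 5 above, with a median of -0.072, and none was called by edgeR, with 2 at an unadjusted p under 0.05. The part of these markers in the values above was not tested.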

How the data were processed

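The 6 samples were 3T3-L1 adipocytes, 3 with the scrambled control shRNA and 3 with the Rbms1 shRNA. Per the labels and the study's methods, total RNA was depleted of ribosomal RNA, made into stranded libraries, trimmed (Trim Galore 0.6.7), mapped to GRCm38 (STAR 2.7.10a) and quantified (Salmon 1.9.0). The deposited values are the authors' estimated counts per gene, not normalized. Which annotation release was used, and whether counting used strand, are not given in the sources used here, and reads shared with near-identical copies may have been divided between genes. Here the counts were rounded and all 45706 genes entered edgeR 4.0.16 in R 4.3.3 (filterByExpr, minimum count 10, TMM, quasi-likelihood test on condition alone, two-sided, Benjamini-Hochberg adjustment over 11440 tested genes). Genes were called at 0.1 on the adjusted p, the cut-off in the study's Results, while its methods name 0.05. DESeq2 1.42.0 and limma-voom (limma 3.58.1) were alternatives. The test was checked on simulated data.

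Total counts ranged from 3142695 to 11073098 per sample, so that 3 counts, taken as the floor of detection, corresponded to 0.220 to 1.49 CPM. All 10 genes were above it in every sample.

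Ratios of genes within a sample used counts plus 0.5 and an exact permutation test, adjusted over 4 ratios. Positions, lengths and 3′ UTRs came from GENCODE on GRCm38 and promoters from RefSeq on GRCm38.p6. The genes and lists were chosen with earlier results of these data known, so a list carries no test of its own. Named beside the 10 genes are the called genes of each of the 6 lists, the 2 of smallest p and the 1 of highest level in each list, Adipoq, Fabp4, Plin1, Dlk1, and the 3 genes most correlated with Rbms1. Lpl, Cd36 and Retn were named after their values were seen. Exosc6 was not analysed here. The result for 1 gene that the rule names is not reported here. Replicate numbers were not taken as pairs.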

Additional observations from a re-analysis of the deposited data

How the results depend on the processing

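The number of genes called over the whole table was 140. It was 430 with DESeq2, 268 without a filter on low counts, 72 with chromosome medians removed, and between 12 and 696 when single samples were left out (12 without scrambled control replicate 2, 21 without control replicate 1, 32 without control replicate 3, 38 without knockdown replicate 2 and 696 without knockdown replicate 1). With library sizes alone, 42 genes were called lower and 84 higher, against 104 and 36. Of the 10 binding protein genes, none was called under these alternatives except Rbms1 without knockdown replicate 3, which made the number called 1 (log2 fold change -0.92, edgeR adjusted p 0.0708). When single samples were left out, the change of Rbms1 lay between -0.92 and -0.52, and over all 17 alternatives its adjusted p lay between 0.0708 and 0.572. Changes of 4 genes passed through 0. With library sizes alone, which moved the median of all tested genes to 0.37, those of Rbms3 (0.12), Elavl1 (0.13) and Zfp36l2 (0.22) were above 0 but below that median, and with chromosome medians removed that of Elavl1 was (0.12). Leaving out single samples gave Zfp36l2 0.15 (control replicate 1) and 0.094 (knockdown replicate 1), Rbms3 0.10 (knockdown replicate 1), and Khsrp -0.012 (control replicate 2) and -0.0023 (knockdown replicate 3), within ranges of -0.35 to 0.15, -0.56 to 0.10 and -0.012 to 0.14. The causes were not tested beyond the construction of each alternative. The estimates of an earlier version of the edgeR test, an alternative added after the data were seen, gave 122 calls and 0 among the 10 genes.

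Samples with the same replicate number did not deviate together (correlations of -0.15, 0.091 and -0.035), so the numbers were not read as pairs. A fit with the replicate number as a block called 39 genes, none of the 10, and gave a log2 fold change of -0.72 for Rbms1 (edgeR adjusted p 0.294). In that blocked fit Fxr1, Dusp1, Ier2 and Retn had edgeR adjusted p of 0.111, 0.137, 0.201 and 0.124.

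The depth of scrambled control replicate 2, 3142695 counts of which 43.0% came from genes derived from ribosomal RNA, limits the precision of every control mean, and Hnrnpd had 68 and Rbms3 70 counts in that sample.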
